A study of Mus musculus with 24 samples.

Results

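The genes described here are 48 mouse genes of the cell cycle, taken as a named list of S phase and mitosis genes. The list was drawn up with earlier results of these data known, so it is not independent of them. All 48 were found among the 45792 genes of the deposited values by Ensembl ID, all 48 had a value other than 0, and all 48 were among the 14227 genes tested. They were described as 21 replication members, 23 mitosis members and 4 members assigned to neither set (Stmn1, Ezh2, Hmgb2 and Tubb5).

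Before a cell divides it copies its DNA once, in S phase, and then separates the copies in mitosis. Origins of replication are licensed when Cdc6 and Cdt1 load the Mcm2 to Mcm7 helicase, and the genes for this machinery are classical targets of the E2F transcription factors, which are released as cells leave G1. Mitotic genes peak later, and many carry a cell cycle genes homology region (CHR) in the promoter, which is bound by the DREAM complex in resting cells and by MYB and FOXM1 complexes in dividing cells. Among liver myeloid cells, dendritic cell precursors and some tissue dendritic cells divide, and resident macrophages renew themselves locally.

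RNA was sequenced from cells of female C57BL/6 mice (age not given in the labels) in which 2 weeks on a diet lacking methionine and choline had been used to induce steatohepatitis. The mice were injected intravenously with DiI-labelled liposomes, DiI being a fluorescent lipophilic dye. The liposomes were empty or held curcumin, a plant polyphenol. After 24 hours, CD11c+ MHC class II+ liver cells were sorted into DiI-positive cells, which had taken up dye, and DiI-negative cells. All 4 groups thus share strain, sex, diet and sorting gate: empty DiI-negative, empty DiI-positive, curcumin DiI-negative and curcumin DiI-positive, with 3 libraries each. No group without liposomes or on a normal diet was analysed here. There are 24 sample records but 12 library codes, so the pair of records with a shared code was taken as 1 library. Codes were assigned to liposome and gate from the wording of the series design. Whether the 3 libraries of a group come from separate mice or from pools is not given, so p-values reflect library-to-library spread, some of which may be technical. In such bulk libraries, fewer cells of a type and less RNA per cell cannot be told apart.

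The labels call the cells dendritic cells. Genes of the sorting gate were high in every library (Cd74 from 18.99 to 19.37 on the deposited log2 scale), and the dendritic cell genes Flt3 (10.34 to 13.47) and Zbtb46 (7.24 to 12.09) were present. Markers of Kupffer cells, B cells and T or NK cells were also present in every library, so the gate did not hold dendritic cells alone. Read numbers are not given. A relative depth index, built from genes with a single count in 1 library and scaled to a geometric mean of 1, ran from 0.994 to 1.35 in DiI-negative and from 0.774 to 1.12 in DiI-positive libraries. The shallowest library was empty DiI-positive replicate 2. Curcumin DiI-positive replicate 3 stood apart in its cell markers: the mean of the endothelial markers, centred on the 12 libraries, was 2.678 there and at most 0.554 in any other library, and markers of plasmacytoid dendritic cells (pDC, 1.249) and of one conventional dendritic cell type (cDC1, 0.706) were also high. Curcumin DiI-negative replicate 3 was high for pDC (1.304) and cDC1 markers (1.126).

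The promoters of a few members are shown first, because the replication and the mitosis members differ in the short words they carry there. RefSeq entries on GRCm38.p6, from 250 bases before to 50 bases after the start of the gene, were found for 40 of the 48 members: 18 replication, 19 mitosis and 3 others. Capitals mark E2F words (TTTGGCGC, TTTCCCGC, TTTGCCGC, TTTCGCGC), the CHR word TTTGAA or its variant TTCGAA, and the CCAAT box, the site of the factor NF-Y, each searched on both strands. The variant CHR word is its own reverse complement, and a pair of CCAAT words can overlap on opposite strands. Rrm2 (chr12:24708004-24708303, plus strand) and Uhrf1 (chr17:56303087-56303386, plus strand, the first of 2 entries) had the smallest p of the replication set in the comparison of the gates. Cdc6 (chr11:98907901-98908200, plus strand) and Mcm3 (chr1:20820263-20820562, minus strand) had the next smallest with an E2F word, and were added after their letters were seen. Mki67 (chr7:135716330-135716629, minus strand) and Ccnb2 (chr9:70421505-70421804, minus strand) had the smallest p of the mitosis members whose promoter could be shown.
Rrm2: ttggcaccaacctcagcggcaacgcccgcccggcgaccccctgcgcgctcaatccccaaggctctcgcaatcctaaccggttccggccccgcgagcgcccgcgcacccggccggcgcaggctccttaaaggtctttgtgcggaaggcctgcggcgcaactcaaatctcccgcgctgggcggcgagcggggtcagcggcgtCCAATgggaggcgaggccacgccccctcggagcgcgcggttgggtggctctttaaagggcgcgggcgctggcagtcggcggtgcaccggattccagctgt
Uhrf1: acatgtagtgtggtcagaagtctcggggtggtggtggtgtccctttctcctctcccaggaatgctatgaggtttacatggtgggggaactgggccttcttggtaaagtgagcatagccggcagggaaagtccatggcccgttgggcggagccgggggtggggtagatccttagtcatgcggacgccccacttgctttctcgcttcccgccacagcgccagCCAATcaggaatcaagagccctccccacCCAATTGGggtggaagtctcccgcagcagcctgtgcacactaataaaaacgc
Cdc6: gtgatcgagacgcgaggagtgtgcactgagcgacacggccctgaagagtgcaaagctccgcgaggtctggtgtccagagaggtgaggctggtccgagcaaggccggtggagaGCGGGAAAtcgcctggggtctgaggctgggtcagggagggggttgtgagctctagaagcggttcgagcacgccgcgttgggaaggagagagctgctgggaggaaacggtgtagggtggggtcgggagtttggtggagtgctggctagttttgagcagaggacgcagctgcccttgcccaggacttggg
Mcm3: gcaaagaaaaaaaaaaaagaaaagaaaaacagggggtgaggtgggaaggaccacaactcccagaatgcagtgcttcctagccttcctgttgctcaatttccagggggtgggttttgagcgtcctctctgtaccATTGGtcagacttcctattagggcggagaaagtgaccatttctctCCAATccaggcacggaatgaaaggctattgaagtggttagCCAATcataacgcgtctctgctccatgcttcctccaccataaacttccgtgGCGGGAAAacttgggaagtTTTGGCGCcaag
Mki67: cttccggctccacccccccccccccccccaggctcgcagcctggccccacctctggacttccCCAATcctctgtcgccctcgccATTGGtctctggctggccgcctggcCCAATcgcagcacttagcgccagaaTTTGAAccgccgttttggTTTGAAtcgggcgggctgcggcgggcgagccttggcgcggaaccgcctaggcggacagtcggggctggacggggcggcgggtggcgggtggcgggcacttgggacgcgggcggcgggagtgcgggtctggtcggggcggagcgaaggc
Ccnb2: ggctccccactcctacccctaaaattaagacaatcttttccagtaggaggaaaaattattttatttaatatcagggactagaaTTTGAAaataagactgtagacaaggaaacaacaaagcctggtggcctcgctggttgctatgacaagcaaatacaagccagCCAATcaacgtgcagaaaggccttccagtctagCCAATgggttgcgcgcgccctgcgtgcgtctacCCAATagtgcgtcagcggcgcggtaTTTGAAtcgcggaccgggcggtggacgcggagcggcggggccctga

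The windows shown are examples, and those of Cdc6 and Mcm3 were chosen for holding an E2F word. In these windows Cdc6 has 1 E2F word and Mcm3 has 2, the latter just after the start of the gene, whereas Mki67 and Ccnb2 each have 2 CHR words and 3 CCAAT boxes and no E2F word. Rrm2 has neither an E2F nor a CHR word in its window, and 1 CCAAT box. The window of Uhrf1 shown also has neither, while its other entry (chr17:56304063-56304362) has 1 E2F word and counts among the genes with one. An E2F word was found in 10 of 18 replication members (55.6%) and in 1 of 19 mitosis members (5.3%, Cdk1), against 2.6% of all 27025 genes in the table. A CHR word was found in 15 of 19 mitosis members (78.9%) and in 4 of 18 replication members (22.2%), against 21.7% of all genes. A CCAAT box was found in 89.5% of mitosis and 61.1% of replication members, against 41.1% of all genes. Counted over promoter windows instead of genes, E2F words were in 40.0%, 5.0% and 2.3% of replication, mitosis and all windows, and CHR words in 16.0%, 80.0% and 19.2%. A match is a description of the letters, not evidence that a factor binds there.

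**Figure D1:**
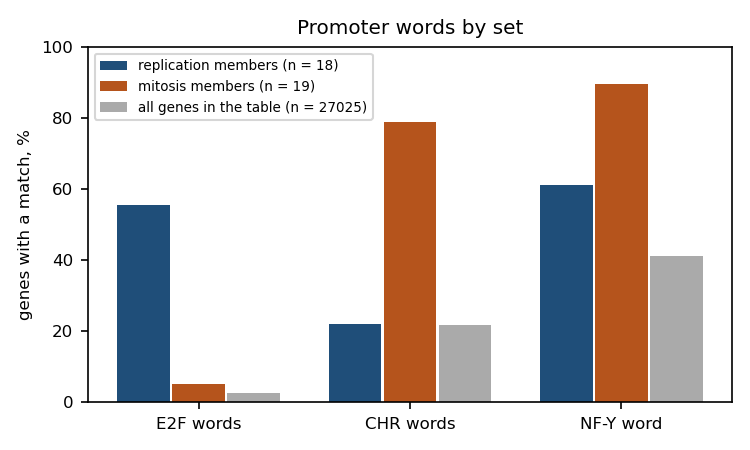
Share of genes (y axis, %) whose promoter window holds an E2F word, a CHR word or the NF-Y word (the CCAAT box), for replication members (blue), mitosis members (orange) and all genes of the RefSeq table (grey). E2F words stand at 55.6% of replication members and CHR words at 78.9% of mitosis members.

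The first comparison sets dye-bearing cells against dye-free cells of one sort. Averaged over both liposomes, 17 of the 48 members were lower in DiI-positive cells and none was higher (limma adjusted p under 0.05 over all 14227 genes). Of all genes tested, 6.56% were called lower and 5.54% higher in this comparison. The mitosis members carried most of these calls: 11 of 23 fell, all 23 had a log2 fold change below 0, and their median was -0.55. Of the replication members 4 of 21 fell, 17 of 21 were below 0, and their median was -0.25. Over all genes the median was 0.005, with 48.9% below 0. Stmn1 and Hmgb2, assigned to neither set, also fell. No test of the difference between the sets was made.

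Leaving out any 1 library left between 14 and 17 members called. With the depth index as a covariate, 12 members were called, but of the replication members only Rrm2 (1 of 21), and 9 of 23 mitosis members. Without curcumin DiI-positive replicate 3 the count was 17, with 16 of the same genes, while over all genes it went from 1722 to 2244.

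**Figure D2:**
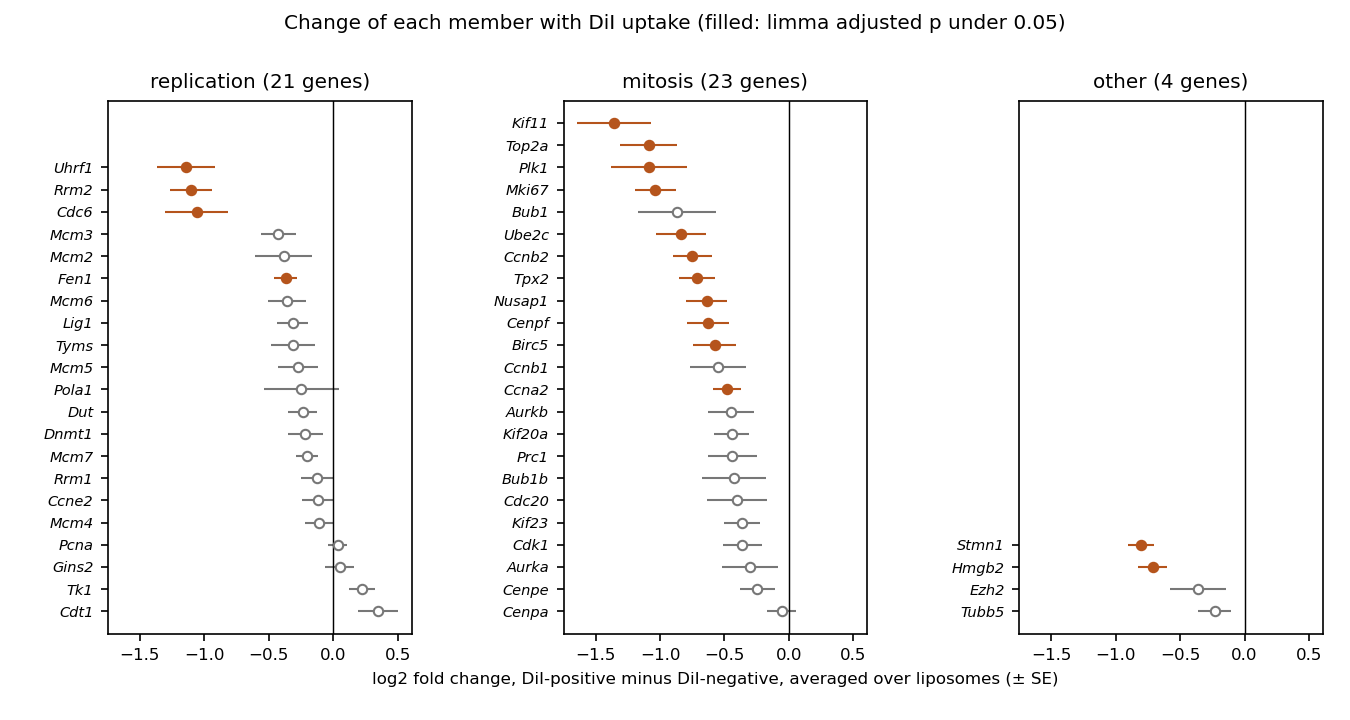
Log2 fold change (x axis, DiI-positive minus DiI-negative, averaged over both liposomes, bars ± SE) of each replication, mitosis and other member. Filled points passed the limma test. All mitosis members lie below 0, from -1.36 for Kif11 to -0.05 for Cenpa, while replication members run from -1.14 for Uhrf1 to 0.35 for Cdt1.

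Taking the libraries one by one, the mean of the 23 mitosis members, centred on its mean over the 12 libraries, lay between 0.133 and 0.547 in DiI-negative and between -0.551 and 0.025 in DiI-positive libraries. The gates did not overlap. For the 21 replication members the ranges were 0.016 to 0.293 and -0.325 to 0.101. They overlapped through empty DiI-positive replicate 3, which at 0.101 stood above curcumin DiI-negative replicate 2. The spread between libraries of a group (SD of the set mean) was 0.127 for replication and 0.176 for mitosis members. Between 13 and 23 of the 23 mitosis members were above their own 12-library median in a DiI-negative library, and between 2 and 13 in a DiI-positive one. For replication members these counts were 9 to 17 and 3 to 12 of 21.

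Among the DiI-positive libraries, 1 differed from the others in the order of the set means, though not in the size of the gap. In empty DiI-positive replicate 2 the mitosis mean (0.025) was 0.282 above the replication mean (-0.257), while in the other 5 DiI-positive libraries it was between 0.112 and 0.306 below. In DiI-negative libraries the mitosis mean was above the replication mean in 5 of 6, by 0.059 to 0.348, and 0.048 below it in curcumin DiI-negative replicate 3. That DiI-positive library had the highest value of its group for 14 of 23 mitosis members, among them Top2a (9.78), Plk1 (8.31) and the anaphase activator Cdc20 (9.19). It had the lowest for 13 of 21 replication members, among them Mcm2 (9.07) and the DNA polymerase alpha subunit Pola1 (6.89). It is also the shallowest library, and the part of depth in this was not tested.

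**Figure D3:**
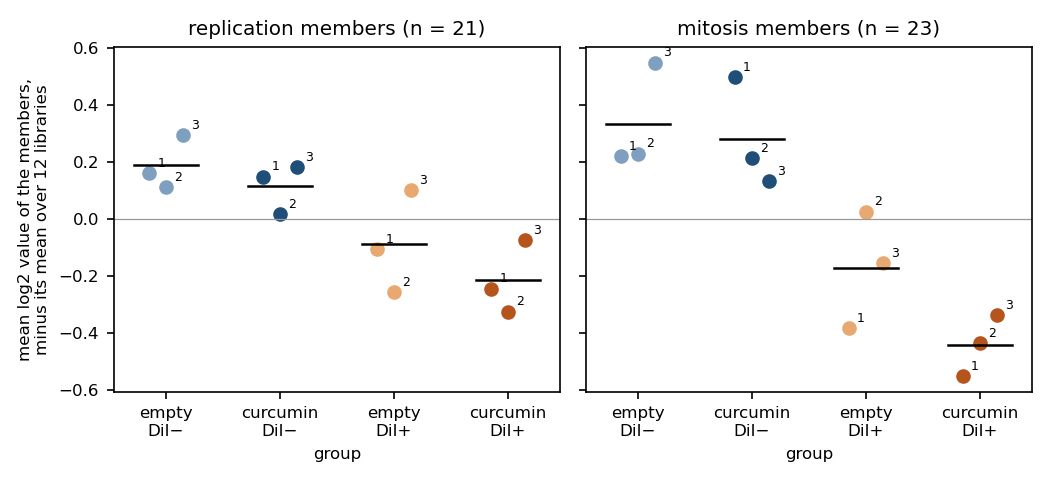
Mean log2 value of the replication (left) and mitosis members (right) in each library, minus the mean over the 12 libraries (y axis), by group (x axis). Numbers are replicates and black lines are group means. All DiI-negative libraries stand above all DiI-positive ones for mitosis, between 0.133 and 0.547 against -0.551 to 0.025.

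**Figure D4:**
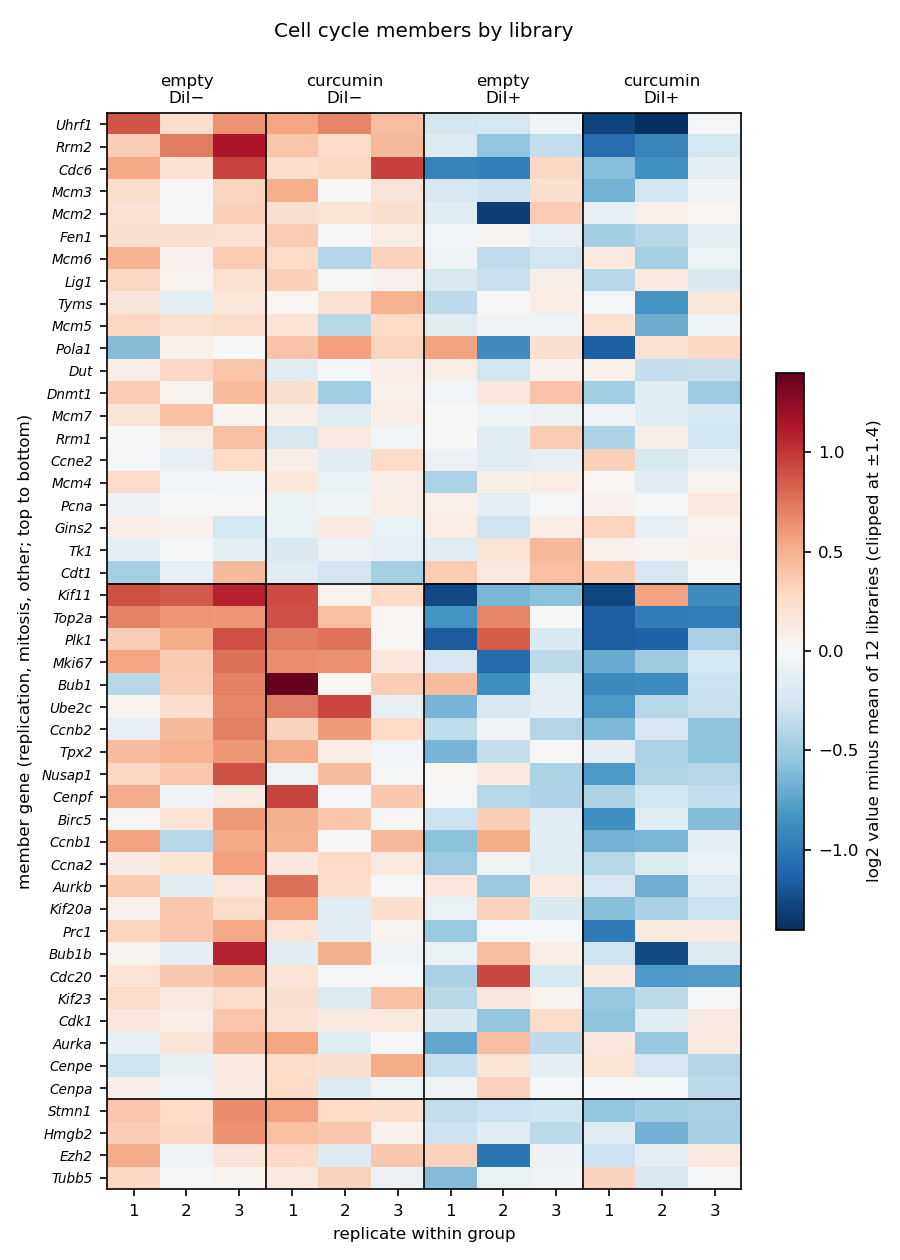
Log2 value of each of the 48 members (rows) minus its mean over the 12 libraries (columns, replicates within groups), with colours clipped at 1.4 in either direction. Red marks values above and blue values below the gene's mean. Rows are ordered within the replication, mitosis and other members by the change between the gates, and the upper rows of each set are mostly red in DiI-negative and blue in DiI-positive libraries.

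Among the replication members, the licensing and helicase genes showed a single call. Cdc6, the origin licensing factor, stood at 7.68, 7.35 and 8.09 in empty DiI-negative, 6.21, 6.19 and 7.44 in empty DiI-positive, 7.40, 7.44 and 8.10 in curcumin DiI-negative and 6.55, 6.30 and 7.02 in curcumin DiI-positive libraries. The curcumin groups did not overlap, while empty DiI-positive replicate 3 lay within the DiI-negative range. Over both liposomes Cdc6 fell by 1.06 ± 0.244 (SE; adjusted p = 0.0166), with similar values after empty (-1.09, adjusted p = 0.119) and curcumin liposomes (-1.02, adjusted p = 0.135). With the depth covariate it was at -0.92 (adjusted p = 0.158).

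None of the 6 helicase subunits Mcm2 to Mcm7 was called, though all 6 were below 0. Their averaged log2 fold changes ran from -0.43 for Mcm3 to -0.11 for Mcm4. Mcm3 stood at 11.20, 10.97 and 11.27 in empty DiI-negative, 10.72, 10.66 and 11.18 in empty DiI-positive, 11.46, 10.97 and 11.13 in curcumin DiI-negative and 10.29, 10.69 and 10.90 in curcumin DiI-positive libraries. The groups overlapped after empty liposomes and were apart after curcumin liposomes. The averaged change of Mcm3 was -0.43 ± 0.135 (adjusted p = 0.063), and it passed when replicate 3 of either DiI-positive group was left out (adjusted p = 0.0332 for empty and 0.0308 for curcumin). Mcm6 (-0.36, adjusted p = 0.143) passed without curcumin DiI-negative replicate 2 (adjusted p = 0.0336). For Mcm4 the interval of the change, -0.35 to 0.13, covered small changes in either direction. Cdt1, the partner of Cdc6 in loading the helicase, lay on the other side of 0 (0.35 ± 0.156, adjusted p = 0.182), and passed as higher without empty DiI-negative replicate 3 (0.47, adjusted p = 0.049). Gins2, a subunit of the active helicase, was near 0 (0.05, adjusted p = 0.827).

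Of the genes that act at the fork, Fen1, the nuclease that trims Okazaki fragments, was the one called. Its values were 10.80, 10.80 and 10.77 in empty DiI-negative, 10.53, 10.62 and 10.46 in empty DiI-positive, 10.93, 10.55 and 10.67 in curcumin DiI-negative and 10.10, 10.17 and 10.45 in curcumin DiI-positive libraries. The gates did not overlap under either liposome taken alone. The fall was small (-0.37 ± 0.088, adjusted p = 0.0194), and with the depth covariate the same gene stood at -0.39 (adjusted p = 0.107). Pcna, the sliding clamp, was nearly level across the libraries, from 10.18 to 10.45, with a change of 0.03 ± 0.072 (adjusted p = 0.807; interval -0.12 to 0.19). The ligase Lig1 (-0.32, adjusted p = 0.113) and Pola1 (-0.25, adjusted p = 0.639) were not called.

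Rrm2, the S phase subunit of ribonucleotide reductase, which makes deoxynucleotides, had the smallest p of the replication members. It stood at 9.31, 9.69 and 10.09 in empty DiI-negative, 8.77, 8.41 and 8.62 in empty DiI-positive, 9.35, 9.23 and 9.42 in curcumin DiI-negative and 7.89, 8.04 and 8.72 in curcumin DiI-positive libraries. All 6 DiI-negative libraries were above all 6 DiI-positive ones, which held for 3.52% of all genes in the lower direction. The change was -1.10 ± 0.165 over both liposomes (adjusted p = 0.00192), -1.10 ± 0.234 after empty (adjusted p = 0.032) and -1.11 ± 0.234 after curcumin liposomes (adjusted p = 0.0279). Its partner Rrm1, the large subunit, which is more stable through the cycle, was at -0.13 ± 0.125 (adjusted p = 0.561). The thymidylate genes went different ways without a call: Tyms, which makes thymidylate from deoxyuridylate, was at -0.31 (adjusted p = 0.281) and the salvage kinase Tk1 at 0.22 (adjusted p = 0.195). Tk1 was the 1 member whose curcumin DiI-positive libraries, 9.34, 9.31 and 9.33, all lay above the curcumin DiI-negative ones, 9.06, 9.18 and 9.15, as was so for 9.88% of all genes.

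Uhrf1, which reads half-methylated DNA behind the fork and recruits the methyltransferase Dnmt1, stood at 9.35, 8.72 and 9.10 in empty DiI-negative, 8.21, 8.22 and 8.41 in empty DiI-positive, 9.02, 9.15 and 8.90 in curcumin DiI-negative and 7.18, 6.95 and 8.44 in curcumin DiI-positive libraries. All 6 DiI-negative libraries were above all 6 DiI-positive ones, and curcumin DiI-positive replicates 1 and 2 were the lowest. Over both liposomes it fell by 1.14 ± 0.224 (adjusted p = 0.00757), and with the depth covariate it was at -1.01 (adjusted p = 0.0984). After curcumin liposomes alone the change was -1.50 ± 0.316 (adjusted p = 0.0279), and after empty ones -0.78 ± 0.316 (adjusted p = 0.22). The difference between these changes, -0.72, was not called (interval -1.70 to 0.26). Dnmt1 itself was at -0.22 ± 0.134 (adjusted p = 0.336).

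Among the mitosis members the chromosome genes Mki67 and Top2a were both called. Mki67, which encodes the proliferation antigen Ki-67 that coats mitotic chromosomes, stood at 10.67, 10.48 and 10.88 in empty DiI-negative, 9.88, 9.04 and 9.75 in empty DiI-positive, 10.76, 10.75 and 10.26 in curcumin DiI-negative and 9.41, 9.62 and 9.87 in curcumin DiI-positive libraries. All 6 DiI-negative libraries were above all 6 DiI-positive ones. The change was -1.04 ± 0.159 over both liposomes (adjusted p = 0.0022), -1.12 ± 0.226 after empty (adjusted p = 0.0262) and -0.96 ± 0.226 after curcumin liposomes (adjusted p = 0.0453).

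Top2a, the topoisomerase that untangles sister chromatids, stood at 9.79, 9.72 and 9.71 in empty DiI-negative, 8.26, 9.78 and 9.09 in empty DiI-positive, 10.00, 9.52 and 9.13 in curcumin DiI-negative and 7.95, 8.12 and 8.13 in curcumin DiI-positive libraries. After curcumin liposomes the gates were far apart, while after empty ones DiI-positive replicate 2 was level with the DiI-negative libraries. The change was -1.09 ± 0.223 over both liposomes (adjusted p = 0.00948), -1.48 ± 0.315 after curcumin (adjusted p = 0.0293) and -0.70 ± 0.315 after empty liposomes (adjusted p = 0.276).

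Of the cyclins that drive mitosis with Cdk1, Ccnb2 and Ccna2 fell. Ccnb2, a B-type cyclin, stood at 8.21, 8.78 and 9.03 in empty DiI-negative, 7.97, 8.27 and 7.92 in empty DiI-positive, 8.65, 8.92 and 8.60 in curcumin DiI-negative and 7.70, 8.09 and 7.76 in curcumin DiI-positive libraries. The curcumin groups did not overlap, and after empty liposomes 1 DiI-positive library reached just above the lowest DiI-negative one. Its change was -0.75 ± 0.148 over both liposomes (adjusted p = 0.00795), -0.88 ± 0.209 after curcumin (adjusted p = 0.0474) and -0.62 ± 0.209 after empty liposomes (adjusted p = 0.14). Ccna2, cyclin A2, which acts in S phase and early mitosis, had a smaller averaged change (-0.48 ± 0.112, adjusted p = 0.0182), with no overlap between the 6 libraries of either gate. Ccnb1 (-0.55, adjusted p = 0.133) and the kinase Cdk1 (-0.36, adjusted p = 0.149) were not called, and nor was the G1/S cyclin Ccne2, counted with the replication members (-0.12, adjusted p = 0.589).

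The spindle genes Kif11, Tpx2 and Nusap1 fell. Kif11, the motor that pushes spindle poles apart, had the lowest averaged change of the 48 members. It stood at 8.55, 8.51 and 8.73 in empty DiI-negative, 6.39, 7.02 and 7.08 in empty DiI-positive, 8.57, 7.70 and 7.94 in curcumin DiI-negative and 6.38, 8.22 and 6.78 in curcumin DiI-positive libraries. After empty liposomes the gates were widely apart, while curcumin DiI-positive replicate 2 stood among the DiI-negative libraries. The change was -1.36 ± 0.285 over both liposomes (adjusted p = 0.0109), -1.76 ± 0.403 after empty (adjusted p = 0.0406) and -0.95 ± 0.403 after curcumin liposomes (adjusted p = 0.238).

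Tpx2, which activates Aurora A on the spindle, stood at 8.68, 8.73 and 8.85 in empty DiI-negative, 7.59, 7.90 and 8.24 in empty DiI-positive, 8.76, 8.34 and 8.20 in curcumin DiI-negative and 8.10, 7.79 and 7.68 in curcumin DiI-positive libraries. The gates did not overlap under either liposome taken alone. Its change was -0.71 ± 0.14 over both liposomes (adjusted p = 0.00778), -0.84 ± 0.198 after empty (adjusted p = 0.0451) and -0.58 ± 0.198 after curcumin liposomes (adjusted p = 0.141), and with the depth covariate it did not pass (-0.77, adjusted p = 0.0551). The microtubule binder Nusap1 was at -0.64 (adjusted p = 0.0232), and its call ended when empty DiI-negative replicate 3 or curcumin DiI-negative replicate 2 was left out (adjusted p = 0.0507 and 0.0517). The cytokinesis genes Kif20a (-0.45, adjusted p = 0.0569), Kif23 (-0.36, adjusted p = 0.12) and Prc1 (-0.44, adjusted p = 0.168) did not pass, although Kif20a did with library weights (adjusted p = 0.04) and without empty DiI-positive replicate 2 (0.0354) or curcumin DiI-negative replicate 2 (0.0251).

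Of the mitotic kinases and checkpoint genes, Plk1 and Birc5 were called. Plk1, Polo-like kinase 1, stood between 7.48 and 8.36 in DiI-negative libraries and between 6.29 and 8.31 in DiI-positive ones, the highest being empty DiI-positive replicate 2. Its averaged change was -1.09 ± 0.297 (adjusted p = 0.036), and that of Birc5, which encodes the passenger protein survivin, was -0.57 (adjusted p = 0.0463). Both calls ended with no filter (adjusted p = 0.0637 and 0.076) and when any 1 of 9 of the 12 libraries was left out, with adjusted p up to 0.0814 for Plk1 and 0.105 for Birc5. The Plk1 call remained without empty DiI-positive replicate 2, curcumin DiI-negative replicate 3 or curcumin DiI-positive replicate 3, and that of Birc5 without the first, the second or curcumin DiI-positive replicate 2. The checkpoint kinase Bub1 was at -0.87 ± 0.305 (adjusted p = 0.0892), Bub1b at -0.43 (adjusted p = 0.304), and the Aurora kinases Aurka and Aurkb at -0.30 and -0.45 (adjusted p = 0.413 and 0.126).

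Of the centromere genes, Cenpf fell (-0.63, adjusted p = 0.0274), although its call ended without any 1 of 4 libraries (adjusted p up to 0.0688) and with the depth covariate (-0.45, adjusted p = 0.26). Those 4 were empty DiI-negative replicate 1, empty DiI-positive replicates 2 and 3 and curcumin DiI-positive replicate 1. The centromeric histone Cenpa (-0.05 ± 0.112, adjusted p = 0.806) and the kinetochore motor Cenpe (-0.24 ± 0.135, adjusted p = 0.28) were nearest 0 of the mitosis members. Of the genes of the anaphase-promoting complex, Ube2c, its ubiquitin-conjugating enzyme, fell (-0.84 ± 0.193, adjusted p = 0.0169) with no overlap between the 6 libraries of either gate, while Cdc20 was at -0.40 (adjusted p = 0.309).

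The 4 members outside both sets split evenly. Stmn1, which encodes the microtubule-destabilizing protein stathmin, stood at 8.55, 8.44 and 8.83 in empty DiI-negative, 7.82, 7.86 and 7.88 in empty DiI-positive, 8.73, 8.44 and 8.41 in curcumin DiI-negative and 7.61, 7.69 and 7.71 in curcumin DiI-positive libraries. The gates were well apart, and the DiI-positive libraries of each group lay within a narrow band. Its change was -0.80 ± 0.099 over both liposomes (adjusted p = 0.000675), the smallest p of the 48 members, with -0.75 ± 0.14 after empty (adjusted p = 0.0185) and -0.86 ± 0.14 after curcumin liposomes (adjusted p = 0.0111).

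Hmgb2, a DNA-bending chromatin protein, stood at 10.43, 10.37 and 10.72 in empty DiI-negative, 9.79, 9.94 and 9.71 in empty DiI-positive, 10.51, 10.46 and 10.15 in curcumin DiI-negative and 9.91, 9.41 and 9.62 in curcumin DiI-positive libraries. Again no DiI-positive library reached a DiI-negative one. It changed by -0.71 ± 0.11 over both liposomes (adjusted p = 0.00223), -0.69 ± 0.156 after empty (adjusted p = 0.0386) and -0.73 ± 0.156 after curcumin liposomes (adjusted p = 0.0294).

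Ezh2, the histone methyltransferase of Polycomb complex 2, stood at 9.40, 8.81 and 9.04 in empty DiI-negative, 9.20, 7.86 and 8.79 in empty DiI-positive, 9.15, 8.69 and 9.25 in curcumin DiI-negative and 8.57, 8.74 and 9.01 in curcumin DiI-positive libraries. The groups overlapped, and empty DiI-positive replicate 2 was the lowest (-0.36 ± 0.214 over both liposomes, adjusted p = 0.315). With the depth covariate its sign turned (0.08). The tubulin gene Tubb5 ran from 11.03 to 11.43 in DiI-negative and from 10.50 to 11.43 in DiI-positive libraries, with overlap (-0.23 ± 0.129, adjusted p = 0.284).

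**Figure D5:**
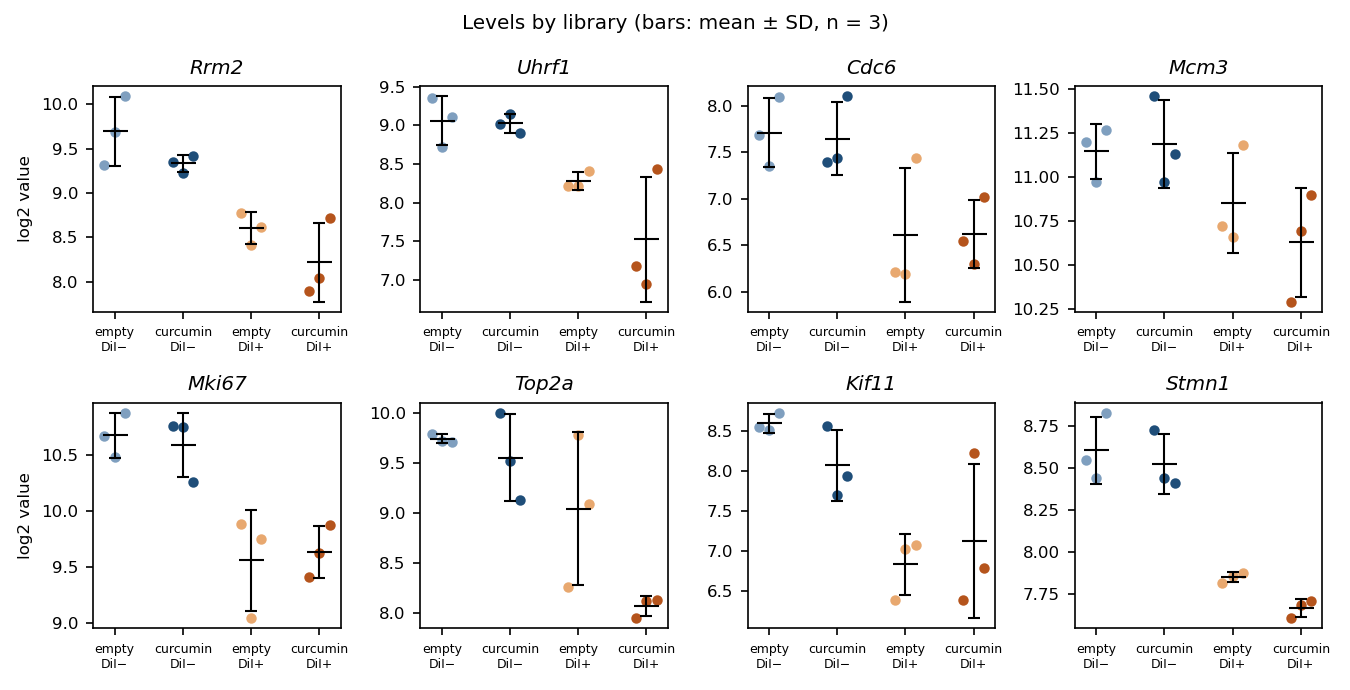
Log2 values (y axis) of 8 members by group (x axis), with points for libraries and bars for mean ± SD (n = 3). Stmn1 and Rrm2 separate the gates fully, whereas 1 DiI-positive library of Top2a (9.78) and of Kif11 (8.22) stands among the DiI-negative ones.

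Each liposome taken alone gave fewer calls. After empty liposomes 6 members fell (1.62% of all genes were called lower), namely Rrm2, Mki67, Kif11, Tpx2, Stmn1 and Hmgb2. After curcumin liposomes 7 fell (1.67% of all genes), namely Rrm2, Uhrf1, Mki67, Top2a, Ccnb2, Stmn1 and Hmgb2. Rrm2, Mki67, Stmn1 and Hmgb2 fell after both, as did 0.879% of all genes. These comparisons share no library, but they share the spread estimated over all 12. With only the 6 libraries of each comparison fitted, 5 of the 6 calls remained after empty liposomes and 0 of the 7 after curcumin liposomes, where Rrm2 (adjusted p = 0.115), Mki67 (0.104), Stmn1 (0.0838) and Hmgb2 (0.142) did not pass, so no member passed after both. The libraries of the gates did not overlap, with DiI-positive lower, for 17 members after empty liposomes (14.5% of all genes) and for 25 after curcumin liposomes (10.7%). Of these, 7 and 16 were mitosis members and 7 and 7 were replication members. The mitosis median was -0.40 after empty and -0.67 after curcumin liposomes, and the replication median -0.26 and -0.20.

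These single-liposome counts rest on few libraries. The count after empty liposomes fell to 1, 1 and 0 without empty DiI-negative replicates 1, 2 and 3, to 1 and 0 without empty DiI-positive replicates 1 and 2, and to 3 without curcumin DiI-negative replicate 2. The count after curcumin liposomes fell to 0 and 3 without curcumin DiI-negative replicates 1 and 2, to 2 without curcumin DiI-positive replicate 1 or 2, and to 4 without empty DiI-negative replicate 2. Without curcumin DiI-positive replicate 3 it was 7, with 6 of the same genes, although the count over all genes after curcumin liposomes went from 437 to 1088.

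The second question was whether the curcumin cargo moved these genes. No member was called in either gate, and nor was any of the 14227 genes (0%). Some fits without 1 library called a few genes in DiI-positive cells, none of them a member. They called 3, 3 and 4 genes without curcumin DiI-positive replicates 1, 2 and 3, and 2 without empty DiI-positive replicate 3. In DiI-positive cells the mitosis median was -0.22 after curcumin relative to empty liposomes, with 19 of 23 members below 0, and the replication median -0.10, with 14 of 21 below 0 (49.9% of all genes were below 0). At an unadjusted p under 0.05 there were 5 of the 48 members, against 8.19% of all genes, so their number says little about the members. They were Top2a (-0.98 ± 0.315, limma adjusted p = 0.464), Dnmt1 (-0.56 ± 0.189, adjusted p = 0.493), Uhrf1 (-0.76 ± 0.316, adjusted p = 0.571), Fen1 (-0.30 ± 0.124, adjusted p = 0.571) and Kif20a (-0.46 ± 0.194, adjusted p = 0.583).

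In DiI-negative cells the medians were -0.06 for both sets, and 1 member, Cenpe, had an unadjusted p under 0.05 (0.42, limma adjusted p = 1.0), against 3.3% of all genes. The limma test of whether curcumin acted differently in the gates called no member (smallest adjusted p = 0.999) and found 0 members at an unadjusted p under 0.05, against 3.7% of all genes. For Top2a that difference was -0.78 (interval -1.76 to 0.19), an interval that holds both 0 and large falls.

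Other genes of the pathway were taken from lists that hold no member, and their counts stand beside 6.56% of all genes called lower and 5.54% called higher. Of 64 tested mitosis genes outside the 48, 18 fell and 1 rose with DiI uptake (median -0.28). They included Cks1b, a cyclin-dependent kinase adaptor (-0.75, limma adjusted p = 0.000998), the kinetochore gene Spc24 (-0.70, adjusted p = 0.00128), the mitotic transcription factor Foxm1 (-0.84, adjusted p = 0.00367) and the lamin gene Lmnb1 (-0.83, adjusted p = 0.00387). The 1 that rose was the phosphatase Cdc25b (0.60, adjusted p = 0.0382), named after its value was seen. Of 45 further replication genes, 2 fell and 1 rose (median -0.05), fewer in either direction than the share of all genes gives, so these counts are no result about the list: the checkpoint mediator Clspn (-0.38, adjusted p = 0.00681) and the histone chaperone Asf1b (-0.50, adjusted p = 0.0288) fell, and the polymerase delta subunit Pold1 rose (0.49, adjusted p = 0.0184). The origin recognition gene Orc1 was at -0.34 (adjusted p = 0.0621).

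Of 27 tested G1 regulators, 6 fell and none rose (median -0.10). All 3 D-type cyclins, which start the cycle by activating Cdk4 and Cdk6, were among them: Ccnd3 (-0.98, limma adjusted p = 0.000324), Ccnd1 (-0.86, adjusted p = 0.00292) and Ccnd2 (-0.86, adjusted p = 0.00332). The others were E2f2, an activating E2F (-0.76, adjusted p = 0.000666), E2f8, an E2F repressor made in S phase (-0.81, adjusted p = 0.00298), and the E2F partner Tfdp1 (-0.77, adjusted p = 0.0372). Ccnd2 and Tfdp1 were named after their values were seen. Like Cdc25b, they were not followed through the fits with the depth covariate or without 1 library. Of 17 tested inhibitors and quiescence genes, 2 fell and none rose (median 0.06), the cyclin-dependent kinase inhibitor Cdkn1a (-0.46, adjusted p = 0.0114) and the antiproliferative gene Btg2 (-0.31, adjusted p = 0.0309). The inhibitor Cdkn2c (-0.35, adjusted p = 0.0529) and the p53 regulator Mdm2 (0.29, adjusted p = 0.0719) did not pass. With the depth covariate 7 of these genes no longer passed, with their signs as before: Pold1 (0.41, adjusted p = 0.178), Clspn (-0.31, 0.1), Asf1b (-0.38, 0.246), Lmnb1 (-0.73, 0.0638), Ccnd1 (-0.73, 0.0554), Cdkn1a (-0.43, 0.107) and Btg2 (-0.34, 0.134).

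Some of these calls also turned on 1 library. Asf1b stopped passing without empty DiI-negative replicates 2 or 3, empty DiI-positive replicate 2, curcumin DiI-negative replicates 1 or 3, or curcumin DiI-positive replicate 2 (adjusted p up to 0.0732), and with no filter (0.0501). Btg2 kept its call only without empty DiI-negative replicate 1, empty DiI-positive replicate 3, curcumin DiI-negative replicate 2 or curcumin DiI-positive replicate 3 (adjusted p up to 0.0729 otherwise). Orc1 passed without curcumin DiI-negative replicate 2 (adjusted p = 0.0432), Cdkn2c without curcumin DiI-negative replicate 3 (0.0464) or with library weights (0.049), and Mdm2, as higher, without curcumin DiI-positive replicate 1 (0.00745) or with library weights (0.0271).

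Markers of other cells also moved with the gate, and their counts stand beside 6.56% of all genes called lower and 5.54% called higher. Of 19 T and NK cell markers, 11 fell and none rose in DiI-positive cells (median -0.89), and the log2 of their summed level was 13.90 to 14.48 in DiI-negative and 12.71 to 13.30 in DiI-positive libraries. Of 9 monocyte markers 7 fell (15.95 to 16.64 against 15.64 to 15.83), and of 9 cDC2 markers 5 fell and 1 rose (15.75 to 15.97 against 15.50 to 15.69). Of the dendritic cell genes, Flt3 (-1.65, limma adjusted p = 0.00732) and Zbtb46 (-1.81, adjusted p = 0.04) fell.

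B cell and Kupffer cell markers moved the other way, beside 5.54% of all genes called higher. All 15 B cell markers rose (16.14 to 16.72 in DiI-negative libraries, 17.67 or above in empty DiI-positive and 16.82 to 17.91 in curcumin DiI-positive ones), as did 15 of 18 Kupffer cell markers (16.36 to 17.08 against 17.29 to 18.22). Of 9 endothelial markers 2 rose and none fell (11.05 to 11.83 against 12.02 to 13.92, the highest being curcumin DiI-positive replicate 3). Of 10 cDC1 markers 2 fell and 1 rose, and of 8 pDC and 8 hepatocyte markers 1 each rose, with overlap between the gates in all 3 lists. Counts of 1 or 2 in lists this short, the endothelial one included, say little about the lists. Germinal centre and plasma cell markers (7 tested) had a centred mean of -0.411 to -0.102 in DiI-negative and 0.047 to 0.442 in DiI-positive libraries. Their summed levels overlapped between the gates (13.68 to 13.98 against 13.49 to 13.83), as did those of neutrophil and erythroid markers. No marker of these lists was at 0 in any library. The depth index by gate is given above. The part of these cell types and of depth in the change of the cell cycle genes was not tested.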

How the data were processed

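Per the labels' protocols, cDNA of sorted cells was amplified (SMARTer Ultra Low Input kit) and Nextera XT libraries were made. The authors deposited 1 log2 value per gene and library. STAR 2.4.0d, DESeq2 1.8.1 and the GRCm38 build are named in the submitters' processing notes; which counter, annotation and transform were used is not given in the sources used here. Values ran from -3.62 to 19.4, and 20918 of 45792 genes were at 0 in all 12 libraries. The scale looks shrunken (spread narrows for low genes), so a fold change understates the change of low genes. Read depth is unknown, so precision is given by the spread between libraries (SD or SE) only; the depth index was taken from 1009 genes that show a single count in 1 library, varied 1.75-fold, and gives relative depth, not a read number.

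The 14227 genes averaging 4 or more over the libraries were fitted with limma 3.58.1 in R 4.3.3, with all 12 libraries, 4 group means and 1 shared spread (eBayes with trend). P-values were adjusted by Benjamini-Hochberg over all genes tested, with a threshold of 0.05, and intervals are 95%. Contrasts were DiI-positive minus DiI-negative after each liposome and averaged over both, curcumin minus empty liposome in each gate, and the difference of the latter. All adjusted p-values in the text come from this fit unless an alternative is named. Symbols came from GENCODE M21 and promoters from RefSeq. Alternatives were no filter, only the groups compared, a replicate block, a common median, library weights, depth as covariate, and leaving out each library. Same-numbered libraries of different groups correlated in their deviations from the group means with r from -0.114 to 0.328, and differently numbered ones from -0.245 to 0.197. Between the gates of empty liposomes, same-numbered r was 0.079, 0.004 and 0.076, and differently numbered r ran from -0.083 to 0.003. Between the gates of curcumin liposomes, these were 0.066, 0.035 and 0.328, against -0.245 to 0.197. The main fit did not pair libraries by number. The replicate block used the same numbers across both liposomes, so pairing of the gates within a liposome was not tested.

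The members and lists were chosen with earlier results of these data known. Values are given in full for the 5 members of each set with the smallest averaged p, all 4 others and any called after 1 liposome, and up to 4 genes are named from each other list by smallest p. Levels are not per length and are not compared between genes.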

Additional observations from a re-analysis of the deposited data

How the results depend on the processing

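The count of members called with both liposomes together (17) was 12 to 18 under the alternatives other than leaving out a library, 18 with a replicate block, and 14 to 17 without 1 library. Of the 17, 13 passed without any 1 library and 9 under all 18 alternatives. For this comparison 1 of the 18, the fit of only the groups compared, is the main fit itself, because all 4 groups enter it. Over all genes the count was 1722, and 426 with the depth covariate, where 12 of the 17 members stayed called. After empty liposomes the count of 6 became 2 with no filter, 1 with the depth covariate (Ccnb2, which is not among the 6) and between 0 and 7 without 1 library. After curcumin liposomes the count of 7 became 1 with no filter, 0 when only the libraries compared were fitted, 4 with the depth covariate (2 of them among the 7) and between 0 and 7 without 1 library. With the replicate block these counts were 4 and 7, and Mcm6 passed over both liposomes (adjusted p = 0.0264). The mitosis median after empty liposomes was -0.61 with the depth covariate, and -0.64 (without empty DiI-positive replicate 2) to -0.28 (without empty DiI-negative replicate 3) when 1 library was left out. The replication median after curcumin liposomes was -0.36 (without curcumin DiI-negative replicate 2) to -0.15 (without replicate 3 of that group). Signs after each liposome alone were followed only for members called after either liposome. Over both liposomes together, signs turned only for members near 0 or in the depth fit: Gins2 (-0.007 to 0.113 without 1 library), Cenpa (-0.113 to 0.013 without 1 library) and Ezh2 (0.081 with the depth covariate). The causes were not tested. Curcumin against empty liposomes called 0 members under every alternative run. Each group has 3 libraries of unknown read number, which limits what could be detected.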
